A study of Mus musculus with 24 samples.

Results

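Ifitm1, Ifitm2 and Ifitm3 encode the 3 interferon-induced transmembrane proteins followed here across mouse pluripotent cells and early embryo tissue. They are 3 of the 20660 genes that could be named on the array. They were selected on measured values: they are the Ifitm genes that the arrays detected in every group, taken up after the Ifitm1 level had been seen to differ between epiblast stem cell lines derived in different ways. The levels in the untreated lines are therefore given as a description, with no test for Ifitm1 in any comparison that uses those lines. Each gene was represented by 1 probe (A_55_P2146254 for Ifitm1), and each probe was well above background on all 24 arrays.

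RNA from 12 groups was hybridised to single-colour Agilent arrays, 2 arrays per group. Epiblast stem cells (EpiSCs) are lines taken from the post-implantation epiblast and held in a primed pluripotent state. The lines Wt1 and 129C1 had been established by the original protocol, and the lines 129Ba1, 129Ba2 and BNa17 in the presence of a Wnt inhibitor. A further group was 129C1 treated with IWP2, a compound that blocks Wnt secretion through Porcupine. Mouse embryonic stem cells (mESCs) were the lines J1 and R1, and J1 kept in 2i, the pair of MEK and GSK3 inhibitors that holds cells in the naive state. Embryo tissue was dissected by hand as epiblast at E5.5 and E6.5 and as embryonic ectoderm at E7.5. The EpiSC lines and mESCs were grown on feeder cells, which were removed before RNA was taken. Strain, sex, doses, treatment times, and whether the 2 arrays of a group came from separate cultures or dissections are not given in the sources used here. Except where EpiSC line means are used, the p-values thus measure only the spread between these arrays, which may be technical. Where line means are used, the spread between lines enters as well. A difference between derivation methods rests on 3 lines against 2.

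The IFITM proteins are small membrane proteins that restrict the entry of enveloped viruses, and their genes are classed among the interferon-stimulated genes. Interferon binds its receptors, Jak kinases phosphorylate STAT proteins, and STAT and IRF complexes then bind promoter elements named ISRE and GAS. In the mouse embryo Ifitm3 (fragilis) is known as a marker of cells becoming competent to form germ cells, and Ifitm1 is known from the primitive streak and nascent mesoderm and has been described as a target of Wnt signalling.

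The promoters are shown because these pathways act through short promoter elements and the 3 genes did not share one pattern of levels. Ifitm2, Ifitm1 and Ifitm3 lie in that order on chromosome 7, between Ifitm5 and Ifitm6 (RefSeq, GRCm38.p6). The Ifitm2 gene runs from 140954837 to 140959686, Ifitm1 from 140967429 to 140969827, and Ifitm3 from 141009590 to 141010744. The windows hold the 250 bases before the start of 1 RefSeq transcript of each gene, and the 30 bases from that start for Ifitm3. The Ifitm1 and Ifitm2 windows lie inside the gene's full span given above, since those transcripts start within it. The bases read 5′ to 3′ on the strand of the gene, with capitals marking matches to the motifs described after them:
Ifitm1, chr7:140967826-140968075, plus strand: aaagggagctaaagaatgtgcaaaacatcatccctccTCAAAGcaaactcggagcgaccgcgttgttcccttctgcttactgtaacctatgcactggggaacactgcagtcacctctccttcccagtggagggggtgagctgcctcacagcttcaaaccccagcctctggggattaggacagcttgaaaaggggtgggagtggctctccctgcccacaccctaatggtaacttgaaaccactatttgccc
Ifitm2, chr7:140955962-140956211, minus strand: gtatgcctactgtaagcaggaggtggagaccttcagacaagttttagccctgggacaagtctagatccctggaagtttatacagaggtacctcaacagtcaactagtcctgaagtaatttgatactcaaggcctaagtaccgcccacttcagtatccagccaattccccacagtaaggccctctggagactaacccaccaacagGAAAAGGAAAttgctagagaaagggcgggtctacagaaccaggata
Ifitm3, chr7:141010745-141010994, minus strand: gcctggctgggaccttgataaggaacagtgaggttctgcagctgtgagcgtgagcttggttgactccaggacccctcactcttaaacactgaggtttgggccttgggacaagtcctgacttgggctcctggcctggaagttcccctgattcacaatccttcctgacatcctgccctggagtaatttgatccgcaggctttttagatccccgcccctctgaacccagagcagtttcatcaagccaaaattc
Ifitm3 from the start, chr7:141010715-141010744, minus strand: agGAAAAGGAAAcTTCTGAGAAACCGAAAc

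The ISRE core (GAAA, any 2 bases, GAAA), the GAS element TTCNNNGAA and the TCF/LEF core CTTTGA were searched on both strands of 300 bases, 250 before the start and 50 after it. The ISRE core was present in 3.44% of 32851 such windows of 27025 genes, GAS in 8.3% and the TCF/LEF core in 16%. Ifitm2 held 1 ISRE core, 37 to 46 bases before the start. Ifitm3 held ISRE cores at bases 3 to 12 and 20 to 29 after the start, with a GAS match at bases 14 to 22 that overlaps the later ISRE core, so their capitals run together. The Ifitm1 window held neither interferon motif and held 1 TCF/LEF core on the opposite strand, 208 to 213 bases before the start. These matches describe letters in 1 window per gene; other start sites were not examined.

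Values are log2 signals relative to the 75th percentile of the same array, so 0 is that percentile. The 75th percentile signal ran from 69.26 to 252.5 over the arrays, 36.71 to 53.21% of probes were well above background, and no spot was saturated. The arrays lay on 6 slides: 129C1 shared a slide with the 3 Wnt inhibitor lines, Wt1 with IWP2-treated 129C1, E5.5 with E6.5, and E7.5 with J1. Scans fell on 4 days. All EpiSC groups were scanned on day 1, E5.5 and E6.5 on day 2, and E7.5, J1 and R1 on day 3. J1 with 2i was scanned on day 4. Sample type, slide and scan day thus cannot be told apart between EpiSCs and mESCs or embryo tissue. The same holds for J1 and R1 against E5.5. The marker lists followed the labels in part. Summed levels of 5 naive markers (among them Zfp42 and Esrrb) were 921 to 1590 in the 3 mESC groups, 184 to 244 at E5.5 and 1.01 to 3.77 in the EpiSC groups. At E5.5 most of the sum came from Dppa5a (7.71 in log2), while Zfp42 was 0.38 and Esrrb -0.84. Those of 5 primed markers (among them Fgf5 and Otx2) were 188 to 569 in the EpiSC groups, 291 to 367 in J1 and R1 and 165 to 177 in J1 with 2i, so this sum did not separate EpiSCs from mESCs. Of the 5 genes, Fgf5 and Pou3f1 were called higher in the EpiSC than in the mESC lines and 0 lower (12.9% and 12.1% of all genes). The primed sums were 1130 to 1290 at E5.5 and E6.5 and 548 to 649 at E7.5. Fibroblast markers, 16 genes such as Col1a1, summed to 87.2 to 658 in the cell lines and to 10.7 to 21.9 in embryo tissue. Visceral endoderm markers, 8 genes such as Afp and Ttr, summed to 7.14 and 81.6 on the E5.5 arrays, 16.8 and 25.8 at E6.5 and 1.32 and 1.86 at E7.5. The 6 immune markers summed to at most 11.6 and the 8 blood and endothelial markers to at most 53.1 on any array. The 10 extraembryonic ectoderm markers, several of which the streak also uses, reached 55.7 on an R1 array and at most 42.1 in embryo tissue. Their part in the results was not tested. In such bulk samples, fewer cells of a type and less RNA per cell cannot be told apart.

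The 3 genes did not share one pattern over the 12 groups. Ifitm1 spanned an 85-fold range of group means, from 129Ba2 to R1. Ifitm3 spanned a 52-fold range, from E7.5 ectoderm to Wt1. Ifitm2 spanned 3.81-fold, from E5.5 epiblast to J1 in 2i. The pooled SD between the arrays of a group was 0.33 for Ifitm1, 0.13 for Ifitm2 and 0.21 for Ifitm3 on the log2 scale, against a median of 0.25 over genes. Over the 12 group means Pearson's r was 0.40 between Ifitm1 and Ifitm2, 0.39 between Ifitm1 and Ifitm3 and 0.70 between Ifitm2 and Ifitm3. Groups that share a line, a slide or a feeder culture enter these correlations together, so they are descriptions only.

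**Figure D1:**
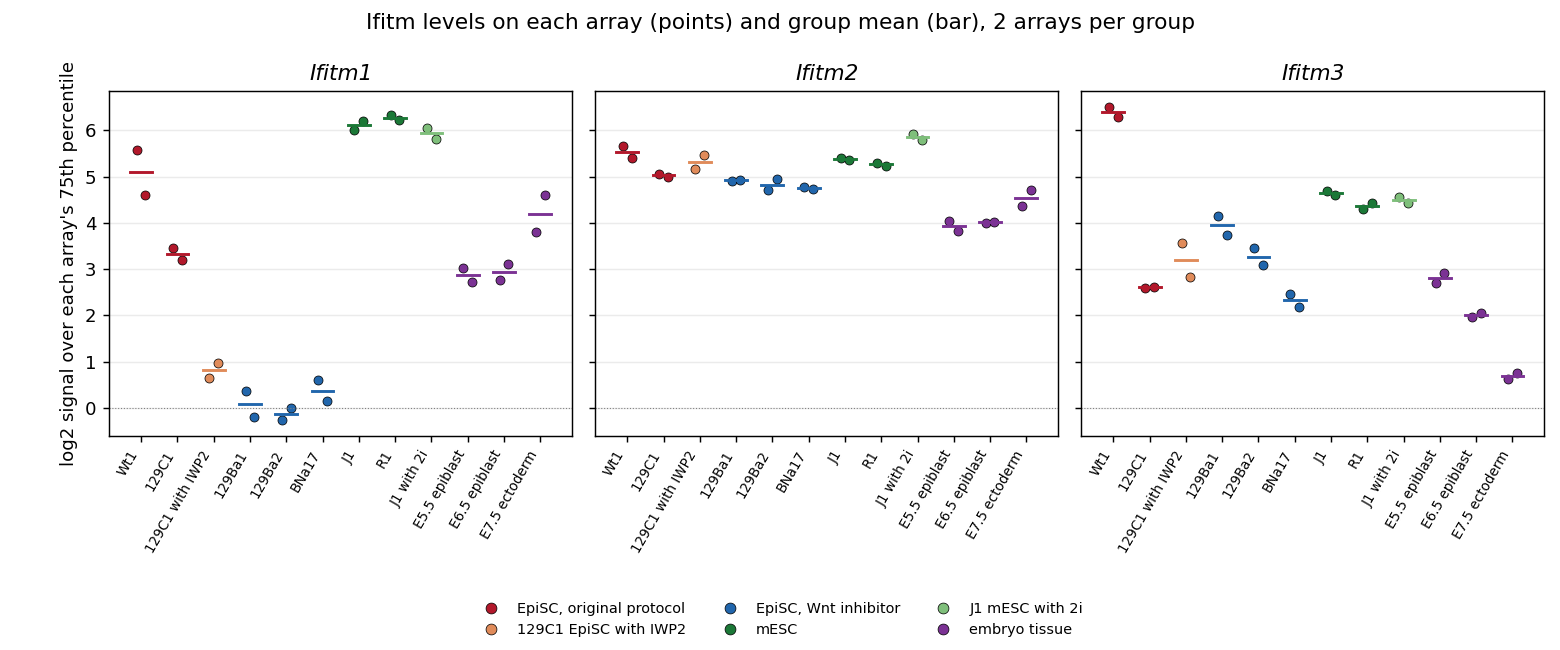
Level of Ifitm1, Ifitm2 and Ifitm3 on each of the 24 arrays by group, on the log2 scale relative to the 75th percentile of the array; points are arrays and the bar is the mean of 2. Ifitm1 was highest in the mESC groups and lowest in the Wnt inhibitor lines, Ifitm2 varied least, and Ifitm3 was highest in Wt1 and lowest at E7.5.

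Ifitm1, the member reported from streak and mesoderm, was high in mESCs, intermediate in embryo tissue and in the original-protocol EpiSCs, and low in EpiSCs derived or treated with a Wnt inhibitor. In mESCs its levels were 6.0 and 6.21 in J1, 6.32 and 6.23 in R1, and 6.05 and 5.81 in J1 with 2i. Among the original-protocol lines, Wt1 had 5.58 and 4.61 and 129C1 had 3.45 and 3.19. The 4 arrays of the original protocol did not overlap those of the mESCs.

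The Wnt inhibitor lines had Ifitm1 levels of 0.37 and -0.19 in 129Ba1, -0.26 and -0.01 in 129Ba2, and 0.60 and 0.14 in BNa17. The ranges of these 3 lines overlapped one another, and all 6 arrays lay below the 4 arrays of the original protocol. The means over lines were 0.11 for the 3 Wnt inhibitor lines and 4.21 for the 2 original-protocol lines, a 17.1-fold difference on which the gene was chosen. Of all genes tested in this contrast 1.57% passed, from which nothing is read here. On the slide that holds 129C1 and the 3 Wnt inhibitor lines the difference was -3.21 in log2. Wt1 is left out of this value, but these lines are among those the gene was chosen on, so it is a description only. The 3 lines lay -2.95 (BNa17), -3.23 (129Ba1) and -3.46 (129Ba2) from 129C1.

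In 129C1 cells treated with IWP2, Ifitm1 was 0.65 and 0.97, below both untreated 129C1 arrays and above every array of the Wnt inhibitor lines. The difference from untreated 129C1 was -2.51 in log2, or 5.71-fold lower, given without a test. The treated arrays were on another slide than the untreated ones, and the effects of treatment and slide cannot be told apart in this value. On their shared slide, treated 129C1 minus Wt1, a different line, was -4.29 in log2.

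In embryo tissue, Ifitm1 was 3.02 and 2.73 in E5.5 epiblast, 2.77 and 3.11 in E6.5 epiblast, and 3.79 and 4.59 in E7.5 ectoderm. The E5.5 and E6.5 arrays overlapped, and both E7.5 arrays lay above them. Ifitm1 was 2.37-fold higher at E7.5 than at E6.5 (log2 difference 1.25 ± 0.32 SE, limma adjusted p = 0.00956), a comparison in which 6.3% of all genes were called higher and 8.56% lower at an adjusted p under 0.05 with at least a 2-fold change. Against E5.5 it was 2.48-fold higher (1.31 ± 0.32, limma adjusted p = 0.00473; 21.1% of genes called, 10.2% higher). Between E6.5 and E5.5, which share a slide, the difference was 0.06 ± 0.32 (limma adjusted p = 0.939; 4.86% of genes called, 2.7% higher). Without the second E7.5 array the comparison with E6.5 fell to 0.85 (limma adjusted p = 0.11) and that with E5.5 to 0.91 (limma adjusted p = 0.0726). Without the first E6.5 array the comparison with E6.5 was 1.08 (limma adjusted p = 0.0795). At E7.5 against E6.5, 8 of 16 fibroblast markers were called higher (Postn detected on neither side) and 1 lower, 4 of 10 extraembryonic ectoderm markers higher and 3 lower, and 8 of 8 visceral endoderm markers lower. Against E5.5 these counts were 5 and 1, 4 and 1, and 8 lower. Fibroblast sums were 10.7 to 12 at E5.5 and E6.5 and 19.7 and 21.9 at E7.5, and the part of these markers in the Ifitm1 values was not tested. E7.5 was on another slide and scan day than E5.5 and E6.5, so slide, scan day and stage cannot be told apart there.

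Ifitm1 was higher in mESCs than in epiblast. The mean of J1 and R1 exceeded E5.5 by 3.31 ± 0.27 in log2, or 9.93-fold (limma adjusted p = 1.34e-07), in a comparison that called 32% of genes, 17.5% higher. Of 16 fibroblast markers 15 were also called higher in that comparison, and their part was not tested. On the slide that held both, E7.5 ectoderm was 3.77-fold lower than J1 (-1.91 ± 0.32, limma adjusted p = 0.000131, with 17.7% of genes called lower). There 13 of 16 fibroblast markers were called lower and 0 higher, and their part was not tested. R1 and J1 differed by 0.17 ± 0.32 (limma adjusted p = 0.975; 0.53% of genes called, 0.278% lower), and 2i and J1 by -0.17 ± 0.32 (limma adjusted p = 0.731; 13% called, 6.04% higher). Neither passed the test, although many other genes were called in 2i against J1. J1 with 2i was on another slide and scan day than J1, so treatment, slide and scan day cannot be told apart there.

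The mean of Ifitm1 over the 5 untreated EpiSC lines was 1.75, against 6.19 over the 2 mESC lines, a 21.7-fold difference given without a test. Against the embryo stages the same mean differed by -1.13 (E5.5), -1.19 (E6.5) and -2.44 (E7.5). These means hide the split among the lines. With only the 2 original-protocol lines the differences were 1.33, 1.27 and 0.02, so their sign turned. With only the 3 Wnt inhibitor lines they were -2.77, -2.83 and -4.08.

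Ifitm2, the member with the narrowest range, was higher in every cell line than in embryo tissue. The 10 untreated EpiSC arrays ran from 4.71 to 5.66 with a median of 4.93. The 4 mESC arrays without 2i ran from 5.23 to 5.40 with a median of 5.33, J1 with 2i had 5.91 and 5.80, and IWP2-treated 129C1 had 5.16 and 5.47. Embryo levels were 4.04 and 3.82 at E5.5, 4.0 and 4.02 at E6.5, and 4.37 and 4.70 at E7.5. All embryo arrays lay below all cell line arrays, though the highest E7.5 array (4.70) was next to the lowest 129Ba2 array (4.71).

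The EpiSC line means exceeded E5.5 epiblast by 1.08 ± 0.22 in log2 for Ifitm2, or 2.12-fold (limma on line means, adjusted p = 0.00464; 24.1% of genes called, 14.7% higher and 9.39% lower). Of 16 fibroblast markers 15 were called higher in the same comparison, and their part was not tested. The Ifitm2 value is close to the 2-fold limit: it was 0.95 without Wt1, 0.91 with only the 3 Wnt inhibitor lines, and 0.97 without the second E5.5 array (limma adjusted p = 0.0503). Against E6.5 the difference was 1.00 ± 0.22 (limma adjusted p = 0.0075), just under 2-fold (22% of genes called, 9.06% lower), and against E7.5 it was 0.48 ± 0.22 (limma adjusted p = 0.132; 17.6% called, 6.15% lower). The mESC lines exceeded E5.5 by 1.39 ± 0.13, or 2.62-fold (limma adjusted p = 5.51e-07). On their shared slide E7.5 was 1.79-fold lower than J1 (-0.84 ± 0.15, limma adjusted p = 0.000288), under the 2-fold limit. Of 16 fibroblast markers 15 were called higher in the mESC lines than at E5.5, and 13 lower at E7.5 than in J1. Their part was not tested there either. EpiSC and mESC lines differed by -0.31 ± 0.24 (limma adjusted p = 0.338; 25% of genes called), and by 0.02 under one of the other settings.

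Small Ifitm2 differences passed the p threshold without reaching 2-fold. J1 with 2i was 1.40-fold above J1 (0.48 ± 0.15, limma adjusted p = 0.0305), and both 2i arrays lay above both J1 arrays. E7.5 was 1.44-fold above E6.5 (0.52 ± 0.15, limma adjusted p = 0.0199) and 1.52-fold above E5.5 (0.60 ± 0.15, limma adjusted p = 0.00611). E6.5 minus E5.5 was 0.08 ± 0.15 (limma adjusted p = 0.819), and R1 minus J1 was -0.11 ± 0.15 (limma adjusted p = 0.944). IWP2-treated minus untreated 129C1 was 0.29 ± 0.15 (limma adjusted p = 0.362), in a comparison that called 3.88% of genes. Among untreated lines the Wnt inhibitor lines lay -0.44 from the original-protocol lines, and -0.19 from 129C1 on the same slide, values given as a description.

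Ifitm3, the fragilis gene of nascent germ cells, was highest in Wt1 (6.51 and 6.28) and lowest at E7.5 (0.63 and 0.76). The mESC groups lay between 4.30 and 4.69 on all 6 arrays. The probe was spotted 10 times on each array, and the SD among those spots was 0.0141 to 0.128, below the pooled SD between replicate arrays.

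Ifitm3 separated the EpiSC lines in another order than Ifitm1. Below Wt1 came 129Ba1 with 4.15 and 3.74, 129Ba2 with 3.45 and 3.09, 129C1 with 2.59 and 2.62, and BNa17 with 2.45 and 2.19. The original-protocol line 129C1 thus lay between Wnt inhibitor lines. The difference of line means by derivation was -1.32, but against 129C1 alone, on the same slide, it was 0.57, so the sign turned when Wt1 was left out. The lines 129Ba1 and BNa17, of one derivation method and one slide, lay apart (BNa17 minus 129Ba1, -1.63), with no overlap between their arrays. Their fibroblast marker sums were 342 and 632 in BNa17 against 564 and 658 in 129Ba1. Most of the BNa17 sum came from Tagln (8.31 in log2 against 7.43 in 129Ba1). All other fibroblast markers were lower in BNa17, among them Col1a1 (3.91 against 5.76) and Col3a1 (3.66 against 5.48). The part of these markers in the Ifitm3 values was not tested.

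Ifitm3 in IWP2-treated 129C1 was 3.57 and 2.82, and the difference of 0.59 ± 0.22 from untreated 129C1 did not pass the test (limma adjusted p = 0.156), although both treated arrays lay above both untreated ones. This difference and that of Ifitm1 (-2.51) had opposite signs. The EpiSC and mESC lines differed by -0.80 ± 1.02 (limma on line means, adjusted p = 0.565). Without Wt1 the value was -1.47 (limma adjusted p = 0.0455).

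In the embryo Ifitm3 was lower at each later stage. Its levels were 2.69 and 2.91 at E5.5, 1.97 and 2.06 at E6.5, and 0.63 and 0.76 at E7.5, with no overlap between stages. E6.5 was 1.73-fold below E5.5 (-0.79 ± 0.22, limma adjusted p = 0.0354), under the 2-fold limit, on a shared slide. E7.5 was 2.49-fold below E6.5 (-1.32 ± 0.22, limma adjusted p = 0.000547) and 4.31-fold below E5.5 (-2.11 ± 0.22, limma adjusted p = 4e-06; 10.9% of genes called lower). Ifitm1 and Ifitm3 thus changed in opposite directions at E7.5 against either earlier stage.

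The 8 visceral endoderm markers were also all called lower at E7.5 than at E5.5 and at E6.5, and their part in the Ifitm3 values was not tested. The E5.5 arrays, whose visceral endoderm sums were 7.14 and 81.6, had Ifitm3 levels of 2.69 and 2.91. Among the blood and endothelial markers, the arrays summed to 39.4 to 53.1 at E5.5 and E6.5 and to 11.7 and 15.2 at E7.5.

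Ifitm3 was 15.5-fold lower at E7.5 than in J1 on the same slide (-3.96 ± 0.22, limma adjusted p = 2.17e-09). The mean of J1 and R1 exceeded E5.5 by 3.26-fold (1.71 ± 0.19, limma adjusted p = 2.47e-06). R1 minus J1 was -0.29 ± 0.22 (limma adjusted p = 0.808) and 2i minus J1 was -0.16 ± 0.22 (limma adjusted p = 0.623). The EpiSC line means exceeded E7.5 by 3.01 ± 0.89, or 8.07-fold (limma adjusted p = 0.0321; 11.4% of genes called higher). That call was lost without the first E7.5 array (2.95, limma adjusted p = 0.159), without the second (3.07, limma adjusted p = 0.14) or without 129Ba1 (2.95, limma adjusted p = 0.0514). Against E6.5 the difference was 1.69 ± 0.89 (limma adjusted p = 0.163) and against E5.5 0.91 ± 0.89 (limma adjusted p = 0.446). Of 16 fibroblast markers, 13 were called lower at E7.5 than in J1, and 15 higher in mESCs than at E5.5. In the EpiSC lines 13 were called higher than at E7.5, and 15 higher than at E6.5 and at E5.5. In each of these comparisons 0 were called the other way. Their part in the Ifitm3 values was not tested.

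**Figure D2:**
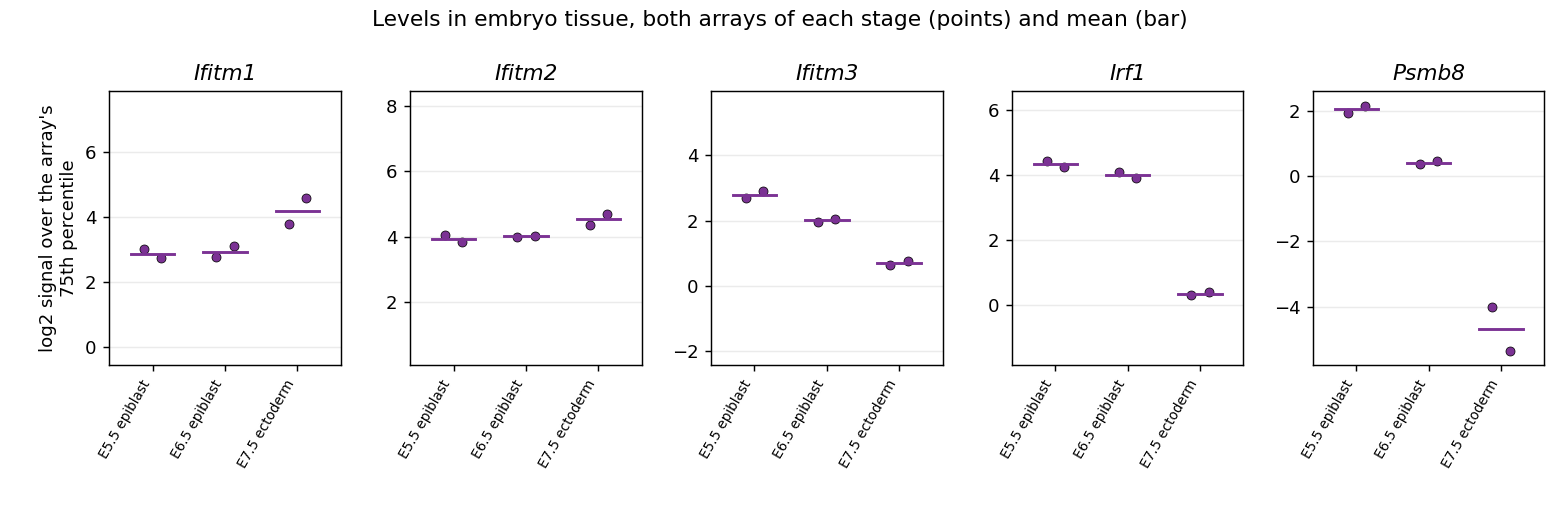
Levels of Ifitm1, Ifitm2 and Ifitm3 in E5.5 epiblast, E6.5 epiblast and E7.5 embryonic ectoderm, in log2 relative to the 75th percentile of each array; points are arrays and bars are means of 2 arrays; Irf1 and Psmb8 are drawn for comparison, and the panels cover different ranges of level over the same span of the axis. Ifitm1 was higher at E7.5 (4.19) than at E6.5 (2.94), while Ifitm3 was lower (0.69 against 2.01).

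**Figure D3:**
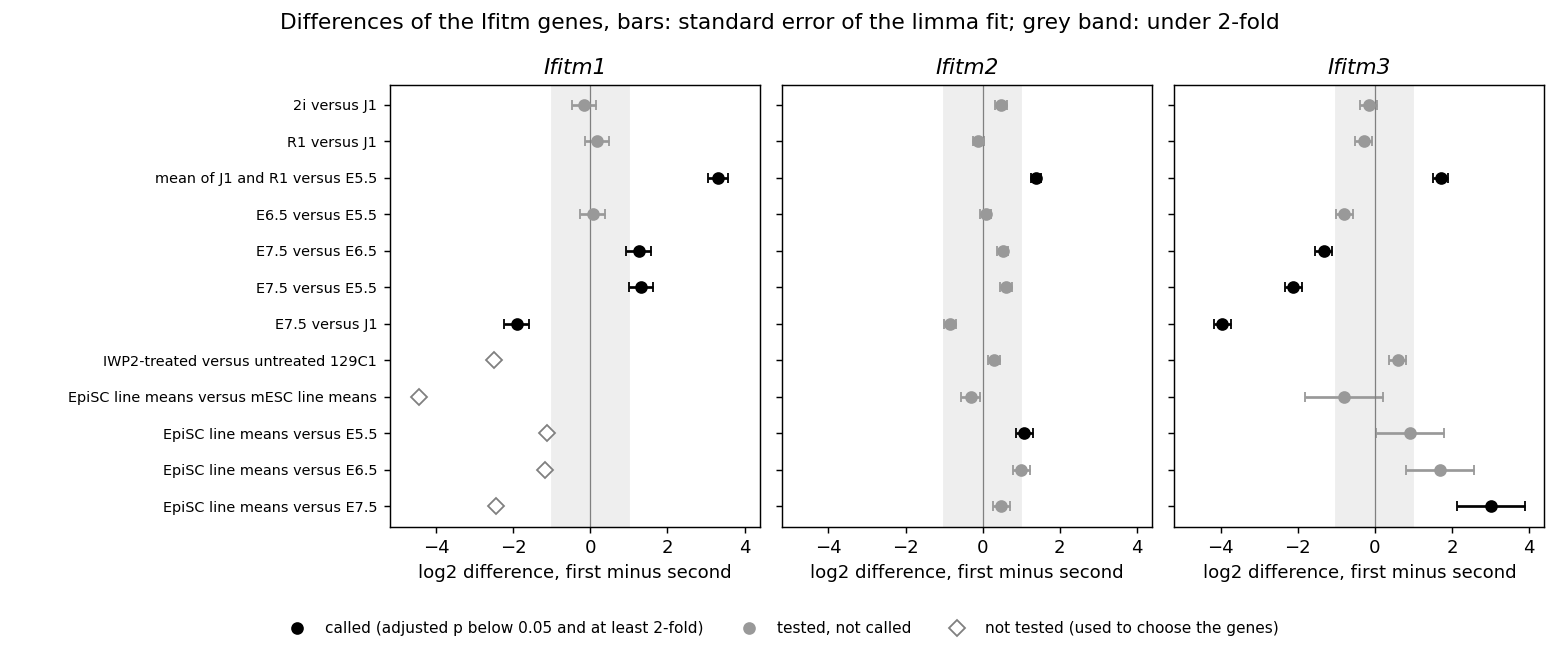
Log2 differences of Ifitm1, Ifitm2 and Ifitm3 in each comparison, first group minus second, with the SE of the limma fit as bars; filled black points passed an adjusted p under 0.05 and 2-fold, grey points did not, and open diamonds were not tested. Ifitm1 and Ifitm3 had opposite signs at E7.5 against E6.5 (1.25 and -1.32) and in IWP2-treated against untreated 129C1 (-2.51 and 0.59).

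The summed level of the interferon-stimulated genes set Wt1 apart from all other groups. Not every gene followed the sum: among others, Oas1a, Oas2, Xaf1, Ddx58 and Trim25 had a higher mean in J1 with 2i than in Wt1. The list held 33 genes, of which 31 were on the array, and excluded the 3 Ifitm genes. Summed levels were 384 and 600 in Wt1 and at most 210 on any other array. Wt1 was compared with 129C1 after this was seen: 25 of the 31 genes were called higher and 0 lower, with a median difference of 2.98 against -0.05 over all genes tested (5.74% of all genes called higher and 4.82% lower). The comparison was chosen on the levels of these genes, so their calls and differences are a description and no p-value is given. Isg15, a ubiquitin-like modifier, was 7.63 and 6.56 in Wt1 and -0.14 and -0.20 in 129C1, a difference of 7.27. Oasl2, of the oligoadenylate synthetase family, differed by 7.62, and Oas2 was at least 43.0-fold higher. Of the 17 signalling genes tested, 5 were called higher, among them the transcription factors Irf7 (at least 25.2-fold) and Irf9 (1.85 ± 0.16). For the 3 Ifitm genes Wt1 minus 129C1 was 1.77 (Ifitm1), 0.51 (Ifitm2) and 3.79 (Ifitm3, 13.8-fold), as a description. Wt1 and 129C1 were on different slides. IWP2-treated 129C1, on the slide of Wt1, had interferon-stimulated sums of 63.8 and 74.2, and untreated 129C1 had 68.4 and 72.7. Fibroblast markers were also higher in Wt1, with sums of 265 and 366 against 215 and 255 in 129C1, and 7 of 16 were called higher and 1 lower; their part was not tested.

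**Figure D4:**
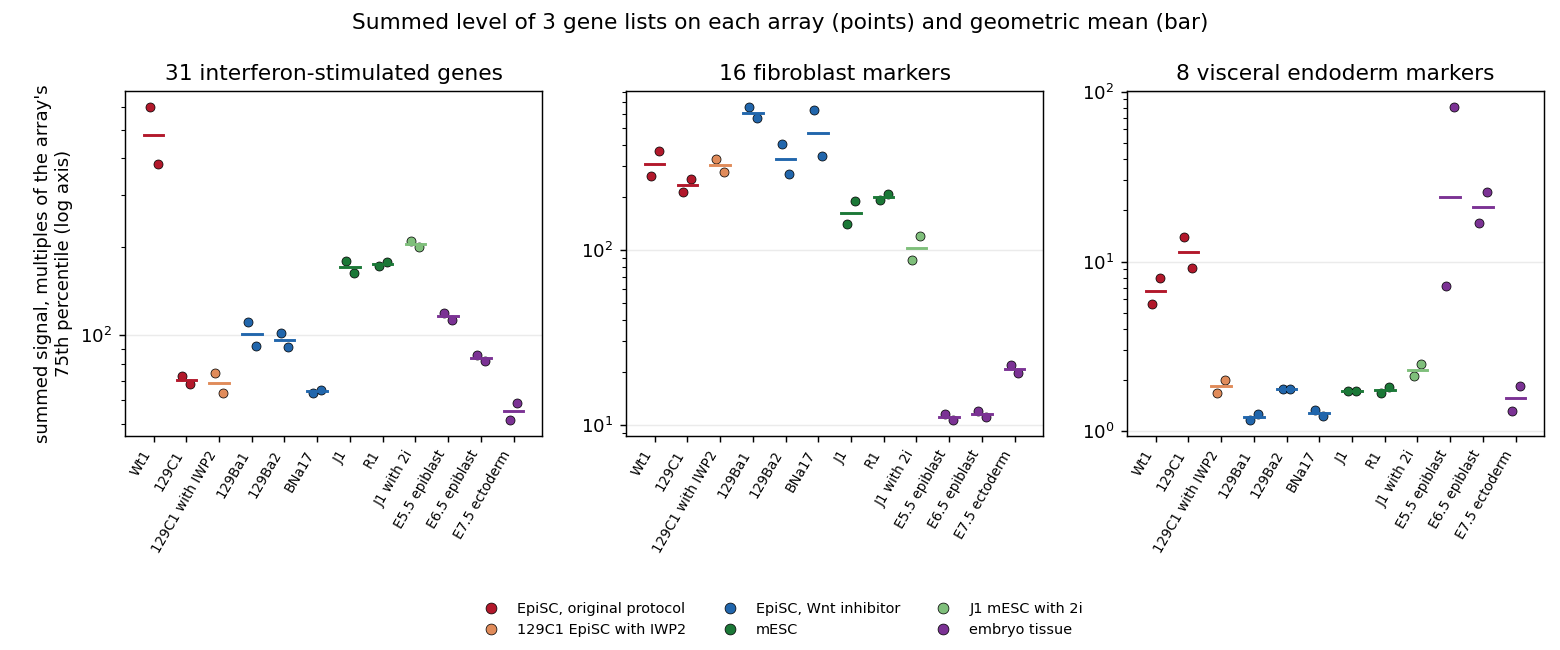
Summed levels of the 31 interferon-stimulated genes, 16 fibroblast markers and 8 visceral endoderm markers on each array, by group, as multiples of the 75th percentile on a log axis; each point is 1 array and the bar is the geometric mean of 2. The Wt1 arrays had interferon-stimulated sums of 384 and 600, and every other array had 210 or less.

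In the embryo the interferon-stimulated list moved mostly in the direction of Ifitm3. At E7.5 against E5.5, 14 of 31 genes were called lower and 2 higher, with a median of -0.87 against -0.02 over all genes (10.9% of all genes called lower). Tap1, among the 14, was detected at neither stage, which leaves 13. The 8 visceral endoderm markers were called lower in the same comparison, and their part was not tested. Psmb8, a subunit of the immunoproteasome, was at least 49.6-fold lower, Oasl2 at least 47.6-fold lower and Gbp2, a guanylate-binding GTPase, at least 7.7-fold lower. These folds are lower bounds because the E7.5 signals were not well above background. B2m, the light chain of MHC class I, and the RNA sensor Ifih1 were higher. At E7.5 against E6.5, 10 were lower and 2 higher (8.56% and 6.3% of all genes), and fewer were lower without either E6.5 array or without the first E7.5 array. At E6.5 against E5.5, 7 were lower and 0 higher (2.16% of all genes lower), with Tap1 again undetected at both stages, and 2 were lower without the second E5.5 or the first E6.5 array. With normexp background correction the counts of lower genes were 8 against E5.5 and 4 against E6.5.

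Of the signalling genes, Irf1, an interferon-induced transcription factor, was 4.43 and 4.25 at E5.5, 4.10 and 3.89 at E6.5, and 0.30 and 0.40 at E7.5. The fall from E5.5 to E7.5 was -3.99 ± 0.15 (limma adjusted p = 3.45e-10). The receptor chains Ifnar1 (1.74 ± 0.20) and Ifnar2 (1.68 ± 0.20) and the feedback inhibitor Socs3 (1.91 ± 0.29) were higher at E7.5 than at E5.5. In all, 4 of the 17 tested signalling genes were called higher and 1 lower (10.2% and 10.9% of all genes).

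In mESCs against E5.5, where all 3 Ifitm genes were higher, 12 of 31 interferon-stimulated genes were called higher and 7 lower (17.5% and 14.5% of all genes). Ifih1, among the 12, was detected on no array of either side, which leaves 11 higher. On the slide of J1, E7.5 had 20 lower and 3 higher, of which Cmpk2 was detected on neither side, with a median of -2.06 against -0.09 over all genes. There 17.7% of all genes were called lower and 14.9% higher. J1 with 2i had 9 lower (Psmb8, -2.29 ± 0.39) and 1 higher, against 7% of all genes lower and 6.04% higher. Of the 9, Ifih1 was detected on neither side, and with normexp background correction 0 were lower. R1 against J1 had 0 calls on this list by limma (2 genes at an unadjusted p under 0.05). After IWP2, 1 gene was lower, the oligoadenylate synthetase Oas1a (-2.57 ± 0.38, limma adjusted p = 0.000651), and 0 of 17 signalling genes passed limma's test (2 at an unadjusted p under 0.05). Over all genes IWP2 had 2.49% called lower and 1.39% higher. Between derivation methods 0 of 30 interferon-stimulated genes tested were called by limma (2 at an unadjusted p under 0.05), with a median of -0.71 against 0.07 over all genes, of which 1.57% were called. The EpiSC lines exceeded E7.5 for 14 genes and lay below it for 2 (11.4% and 6.15% of all genes), and fewer were higher without either E7.5 array.

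Several streak and Wnt target genes were lower in the EpiSC groups in which Ifitm1 was low. After IWP2, 7 of 15 streak and mesoderm genes tested were called lower and 0 higher, among them the endoderm factor Foxa2 (at least 219-fold lower), the organiser gene Gsc (-6.39) and T, the Brachyury gene of nascent mesoderm (at least 9.61-fold lower). Over all genes 2.49% were called lower and 1.39% higher in that comparison. Of 13 Wnt targets 4 were lower, including the secreted Wnt inhibitor Dkk1 (at least 32.9-fold) and the transcription factor Sp5 (at least 11.4-fold), and 1 was higher. In the Wnt inhibitor lines against the original-protocol lines, 4 of 11 streak genes and 4 of 13 Wnt targets were lower and 0 of either list were higher (1.04% of all genes lower). Of the genes called lower, Foxa2, Dkk1, Sp5 and Lgr5 were well above background on both arrays of a line only in Wt1 and 129C1. They entered the test through those lines and could hardly come out higher, so the filter sets part of these counts. In the embryo, 12 of 15 streak genes were higher at E6.5 than at E5.5, where Ifitm1 differed by 0.06; T rose by 6.38 ± 0.65 and Mesp1, a mesoderm factor, was at least 422-fold higher. Over all genes 2.7% were called higher and 2.16% lower at E6.5 against E5.5. At E7.5 against E6.5, where Ifitm1 was higher, 9 of the 15 streak genes were lower and 3 higher (8.56% and 6.3% of all genes). At E7.5 against E5.5, where Ifitm1 was also higher, 7 were higher (Cdx1, Cdx2, Evx1, Hand1, Mesp1, T and Tbx6) and 2 lower, and 11 were higher without the first E7.5 array. Wnt targets at E7.5 against E5.5 were 7 higher and 1 lower, with Sp5 at 5.16 and Nkd1, a feedback inhibitor of the pathway, at 3.65. In that comparison 10.2% of all genes were called higher and 10.9% lower.

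The germ cell list of 16 genes held calls in both directions in the embryo, where Ifitm3 fell. At E7.5 against E5.5, 4 were higher and 2 lower (10.2% and 10.9% of all genes). At E7.5 against E6.5, 2 were higher, the receptor kinase Kit (2.17 ± 0.22) and the transcription factor Tfap2c (1.59 ± 0.53), and 3 were lower, among them the ligand Bmp8b (at least 2.79-fold). In that comparison 6.3% of all genes were called higher and 8.56% lower. In mESCs against E5.5, where all 3 Ifitm genes were higher, 10 were higher and 1 lower, with Tfap2c at 7.61 ± 0.46 and Prdm14 at least 63.7-fold higher. Over all genes 17.5% were called higher and 14.5% lower there. After IWP2, Prdm1 (-2.49), the repressor known as Blimp1, and Kit (-1.47) were lower, and Alpl (1.72) was higher, against 2.49% of all genes called lower and 1.39% higher.

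Of 16 listed genes that flank the Ifitm cluster on chromosome 7, 13 were tested. After IWP2 0 were called by limma and between derivation methods 0 of 12, with 2 genes at an unadjusted p under 0.05 in each. At E7.5 against E6.5 1 was lower (Ano9, -1.51), against 8.56% of all genes. In mESCs against E5.5, 5 were called higher and 0 lower (17.5% and 14.5% of all genes). Of the 5, Scgb1c1 was detected on no array of either side, which leaves 4, among them Sigirr (1.76), an inhibitory receptor of the interleukin-1 family. Of the other Ifitm genes, Ifitm5, Ifitm6 and Ifitm10 were on the array, with levels of -1.98 or lower on every array. Of these only Ifitm6 entered the test over the 12 groups, since both arrays of J1 with 2i detected it; elsewhere it was detected on 1 Wt1 array alone, and no difference is given for it. Ifitm7 was not measured here.

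The genes whose group means followed each member most closely differed for the 3 members. They were taken from 3216 genes with an SD of at least 1 over the 12 group means. For Ifitm1 they were Cpsf4l (r = 0.967), Gli1 (0.963), Cd2 (0.942), Smoc1 (0.94) and Porcn (0.937). Gli1 is a transcription factor and target of Hedgehog signalling, and its level was 3.28 in J1, 0.36 in 129C1 and -3.66 in IWP2-treated 129C1. For Ifitm2 they were Cited4 (0.952), Mir22hg (0.947), Hebp1 (0.947), Ap3b2 (0.941) and Epb41l4a (0.932). For Ifitm3 they were Rarres2 (0.921), Saa3 (0.914), Tgtp2 (0.912), C1s2 (0.907) and Lgals9 (0.906). Saa3, an acute phase protein gene, was 3.80 in Wt1 and at most 0.08 in the other groups. By Spearman correlation over the same means, 3, 2 and 2 of these 5 genes stayed among the 5 nearest to Ifitm1, Ifitm2 and Ifitm3. The correlations run over 12 groups that share lines, slides and culture, and each member's nearest genes were picked for their likeness.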

How the data were processed

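RNA of 24 samples in 12 groups of 2 was labelled with Cy3 and hybridised to 1-colour Agilent arrays. The deposited scanner files hold processed signal intensities that the authors made with Agilent Feature Extraction 10.5.1.1, per the submitters' processing notes. The authors' deposited log2 values were given per probe and array. Every column correlated with its own array at 0.99997 or more, each probe was centred on its median over the arrays, and these values served as an alternative. Genome build and annotation of the array are not given in the sources used here.

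From the files, log2 of the processed signal minus the 75th percentile of each array was taken, leaving out 3671 control spots and flagged outlier spots among 62976. Spots of a probe were averaged. Probes were named through RefSeq accessions (GRCm38.p6), which named 27235 of 55681 probes; a gene was represented by its brightest probe. Genes that were well above background throughout at least 1 group were tested with limma 3.58.1 (R 4.3.3), 15090 genes in the 12-group fit. EpiSC lines were compared with mESC lines on line means. Against embryo stages, the 5 EpiSC line means were set against the 2 single arrays of each stage in a fit with a shared estimate of spread. The SEs of that fit thus mix the spread between lines with that between arrays. A call needed a Benjamini-Hochberg adjusted p under 0.05 and at least a 2-fold difference, two-sided. Where a probe was not well above background on any array of one side, the fold is a lower bound. The number of arrays limits precision. The probe sequences were not used here, so cross-hybridisation among the Ifitm genes was not tested. The scripts were tested on simulated data.

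The members and gene lists were chosen with earlier results of these data known, and Wt1 was compared with 129C1 after seeing the data. Up to 4 called genes with the largest difference per list were named, and the 5 genes most correlated with each member; B2m and Ifih1 lie outside this rule and were named after their values were seen. The alternatives were another background correction, 2 other scalings, the authors' values, filters on dim genes, probe rules, variance and call rules, fewer lines and each array or line left out.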

Additional observations from a re-analysis of the deposited data

How the results depend on the processing

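Ifitm1 in EpiSC lines depended on which lines were used, and these values have no test. With only the 2 original-protocol lines the differences from E5.5, E6.5 and E7.5 were 1.33, 1.27 and 0.02 (signs turned) and from mESCs -1.98. With only the 3 Wnt inhibitor lines they were -2.77, -2.83, -4.08 and -6.08, and without Wt1 -1.96, -2.03, -3.27 and -5.27. By derivation method, the differences of Ifitm1, Ifitm2 and Ifitm3 were -3.21, -0.19 and 0.57 without Wt1, which is also the comparison within one slide, and -4.98, -0.70 and -3.22 without 129C1; the sign of Ifitm3 turned. Leaving out single arrays gave 1.28 to 2.26 for Ifitm1 and 0.38 to 0.64 for Ifitm2 in Wt1 against 129C1.

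With no minimum fold, Ifitm2 also passed in 2i against J1 (0.48), E7.5 against E5.5 (0.60), E6.5 (0.52) and J1 (-0.84) and EpiSC lines against E6.5 (1.00), and Ifitm3 in E6.5 against E5.5 (-0.79). Ifitm2 in EpiSC lines against E6.5, at the edge of 2-fold, also passed with the percentile over detected probes (1.21), quantile normalization (1.23), only the original-protocol lines (1.26), and without 129Ba1 (1.02), 129Ba2 (1.05) or BNa17 (1.06); single arrays left out gave 0.97 to 1.03. Against E5.5 it missed 2-fold with only the 3 Wnt inhibitor lines (0.91) or without Wt1 (0.95), and single arrays left out gave 0.97 to 1.19. Ifitm3 in EpiSC lines passed against E6.5 with arrays as replicates (1.69) or only the 3 Wnt inhibitor lines (1.17), passed against mESCs without Wt1 (-1.47), and did not pass against E7.5 without 129Ba1 (2.95) or without the first (2.95) or second (3.07) E7.5 array. Single arrays left out moved Ifitm1 at E7.5 over 0.91 to 1.71 (against E5.5) and 0.85 to 1.65 (against E6.5), and Ifitm2 at E7.5 against J1 over -1.01 to -0.67. Ifitm1 at E6.5 against E5.5, not called, ran from -0.01 to 0.14 over settings. In all, 833 of the members' recomputed values kept their call or, if untested, moved little. The cause of the changes was not tested.

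The percentile over detected probes moved the median of all genes by more than 0.1 in 7 of 14 comparisons, at most by 0.271 (EpiSC against mESC lines). It moved the share of calls that were higher from 42.4 to 53.6% (E7.5 against E6.5), 51.5 to 68.5% (EpiSC against mESC lines), 58.7 to 72.7% (EpiSC lines against E6.5) and 46.3 to 57.2% (2i against J1, 35.3% with quantile normalization). Normexp on median signals, used because the files hold no mean signal, gave fewer calls over all genes. Its count against the main one was 37 against 80 for R1 and J1, 272 against 585 for IWP2, 300 against 734 for E6.5 and E5.5, 613 against 1968 for 2i, 768 against 1593 for Wt1 and 129C1, 869 against 2243 for E7.5 and E6.5, 1304 against 3183 for E7.5 and E5.5, 2795 against 4921 for E7.5 and J1, and 2202 against 4831 for mESCs and E5.5 (66.7% higher against 54.6%). For EpiSC lines it was 1959 against 3615 with mESCs (38.3% higher against 51.5%), 1675 against 3552 with E5.5, 1750 against 3241 with E6.5 and 1290 against 2595 with E7.5. With no minimum fold the counts were higher, in the order 2i, E6.5 against E5.5, E7.5 against E6.5, E5.5 and J1, mESCs against E5.5, Wt1 against 129C1 and EpiSC lines against E5.5, E6.5 and E7.5, at 3960, 1346, 4142, 5447, 7677, 8449, 2835, 5738, 5451 and 4251. Calls between derivation methods numbered 221, 135 with no filter on dim genes, 116 with a strict one, and 40 (without 129Ba2) to 622 (without 129C1) with a line left out. R1 against J1 had 201 calls when only those arrays were fitted, and 118 to 220 with an array left out (157 without the second J1 array, 220 and 134 without the first and second R1 arrays), of which 22 to 74.6% were higher in place of 47.5%. EpiSC against mESC lines had 1945 calls without J1 and 2003 without R1. Without an E6.5 array, E6.5 against E5.5 had 412 or 484, and EpiSC lines against E6.5 had 1949 or 1972; without the first E7.5 array EpiSC lines against E7.5 had 1547. Deviations of same-numbered arrays had a median correlation of 0.00267 over 66 pairs of groups (-0.246 to 0.221, 9 over 0.1). The main fit used no pairing by number, and this check cannot exclude pairing between particular groups. With the replicate block, 0 of 23 tested member results changed their call; Ifitm1 at E7.5 against E6.5 stayed at 1.25 (limma adjusted p = 0.0121). Slide as a random block could not be fitted, since each group lies on 1 slide. Dim signal limits the list counts, not the members.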
